A study of Homo sapiens with 6 samples.

Results

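Genes that mark blood stem cells and early progenitors were followed in the human T-cell acute lymphoblastic leukaemia line RPMI-8402. They are FAM30A, CD34, KIT, FLT3, PROM1, ERG, MEIS1, HOXA9, BAALC and SPINK2, 10 of 19695 genes named on the array. The genes were selected on the strong fall of FAM30A with shGATA3 in these same data, so that fall, and the matching difference from shTCF1, are given below as a description, with no test. The accessions of 15 probes of 57176 mapped to these symbols, and each of the 10 genes had at least 1 probe. Cells were transduced with lentivirus carrying a control short hairpin RNA (shRNA), an shRNA against GATA3 (shGATA3) or one against TCF7 (shTCF1), which encodes TCF1. All 3 groups had 2 arrays, each from 100 ng of total RNA of EGFP-positive cells sorted 48 h after transduction. The control was the MISSION SHC002 vector with EGFP in place of puromycin resistance, and every array came from this 1 cell line. The study describes its arrays of a group as independent experiments.

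Blood stem cells and early progenitors carry CD34 and receptor tyrosine kinases such as KIT and FLT3, and they use transcription factors such as ERG, MEIS1 and the HOXA proteins to keep an immature state. During T-cell development in the thymus these genes are switched off while T-cell genes come up under Notch signalling, TCF1 and GATA3. T-cell leukaemias often keep part of the early programme, and HOXA genes and MEIS1 are known from one of their subtypes.

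The promoters of 3 members are shown because FAM30A carried the largest difference among the members, HOXA9 rose on the arrays labelled shTCF1 and ERG differed between both shRNA groups. Each runs from 250 bases before to 50 bases after a gene start in RefSeq (GRCh38.p14), and capitals mark a match to AGATAA or TGATAA, which GATA factors bind, or to CTTTGA, which TCF and LEF factors bind, on either strand. The FAM30A window is chr14:105917729-105918028 on the plus strand, the HOXA9 window chr7:27165488-27165787 on the minus strand, and the ERG window, 1 of 4 ERG starts in the table, chr21:38498455-38498754 on the minus strand.
FAM30A: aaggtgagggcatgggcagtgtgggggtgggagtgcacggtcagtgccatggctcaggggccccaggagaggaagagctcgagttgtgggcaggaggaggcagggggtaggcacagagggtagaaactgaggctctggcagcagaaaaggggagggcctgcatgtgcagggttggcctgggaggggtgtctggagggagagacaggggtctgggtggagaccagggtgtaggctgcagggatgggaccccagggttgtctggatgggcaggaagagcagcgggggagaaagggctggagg
HOXA9: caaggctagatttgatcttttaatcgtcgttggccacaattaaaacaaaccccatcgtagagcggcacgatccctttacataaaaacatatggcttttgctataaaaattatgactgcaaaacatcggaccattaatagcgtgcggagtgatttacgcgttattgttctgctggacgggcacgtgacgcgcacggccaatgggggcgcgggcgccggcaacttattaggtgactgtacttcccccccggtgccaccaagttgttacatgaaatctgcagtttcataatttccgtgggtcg
ERG: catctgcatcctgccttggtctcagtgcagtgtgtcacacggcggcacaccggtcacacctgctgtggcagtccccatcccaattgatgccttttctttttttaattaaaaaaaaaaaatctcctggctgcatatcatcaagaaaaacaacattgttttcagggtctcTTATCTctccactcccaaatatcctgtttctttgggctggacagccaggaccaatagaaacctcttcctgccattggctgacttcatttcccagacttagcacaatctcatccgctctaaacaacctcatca
The FAM30A and HOXA9 windows held none of the 3 motifs. The ERG window held AGATAA on the opposite strand, written TTATCT in the gene's direction, with its first base 82 bases before the start, and a neighbouring ERG start shares this match. Of 35116 promoters in the table, AGATAA was found in 10.3%, TGATAA in 7.53% and CTTTGA in 12.9%. Among 16 member promoters, 2 held AGATAA, both of ERG and overlapping, 0 held TGATAA and 1, of PROM1, held CTTTGA. The table holds no window for BAALC. The share of G and C was 65.0% for FAM30A, 48.0% for HOXA9 and 45.7% for this ERG start, against a median of 58.7% over all promoters. A motif match is a description of the letters and not a binding site.

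An array had between 51.0% and 56.2% of its probes above background, and correlations across probes, which are not independent replicates, were 0.988 to 0.993 within groups and 0.982 to 0.989 between them. Of 19 T-lineage markers 12 were above background on all 6 arrays, while CD1E, RAG2 and THEMIS were not well above background on both arrays of any group. With shTCF1, TCF7 had a log2 change of -1.31 against control (SE 0.098, adjusted p 0.00393 in limma), so this target was lower. GATA3 was not lower on the arrays labelled shGATA3: its normalized log2 intensities were 9.46 and 9.55 there and 9.54 and 9.56 in control, a log2 change of -0.050 (SE 0.10, adjusted p 0.795 in limma). On its 1 tested probe GATA3 goes against its label, so this group is called the arrays labelled shGATA3. No direction given here speaks for a measured loss of GATA3. Whether this probe would show a knockdown was not tested. The paper reports a knockdown by GATA3 shRNA in CD34+ thymocytes, which are other cells than these. Where a value is given below as with shGATA3, it is that of the arrays so labelled. Both control arrays lay in one row of the slide and all 4 shRNA arrays in the other, so that slide row and control against shRNA cannot be told apart. Within the shRNA row, shTCF1 held columns 1 and 2 and shGATA3 columns 3 and 4. Slide position and the direct comparison of both shRNA groups thus cannot be told apart either. Both control arrays were also brighter before normalization.

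Signal above background was found for FAM30A, CD34, KIT, ERG, MEIS1, HOXA9 and SPINK2, and these 7 genes, with 9 probes, could be tested. FLT3, the receptor of FLT3 ligand, PROM1, the surface glycoprotein CD133, and BAALC, a gene whose high expression is known in acute leukaemia, were not well above background on any array. Their background-subtracted intensities ranged from 3.42 to 5.2 for FLT3, from 3.0 to 4.44 for PROM1 and from 2.94 to 4.35 for BAALC, before arrays were scaled to each other. The lowest signal marked well above background was between 11.3 and 19.3, depending on the array. A pair of KIT probes, A_33_P3407034 and A_33_P3303245, was also not well above background on any array, and the same held for the HOXA9 probe A_23_P500998, at 3.55 to 10.9. For these 6 probes no fold is given, and a change below the detection limit was not measurable.

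**Figure D1:**
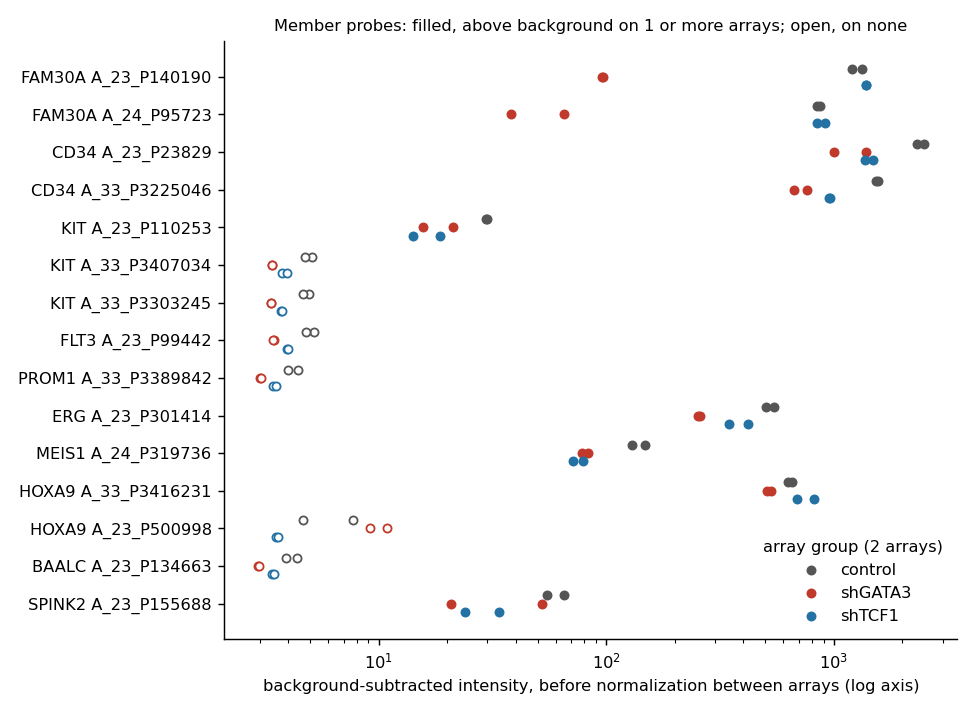
Background-subtracted intensity of all 15 member probes on a log axis, before normalization between arrays, with 1 point per array and colours for the 3 groups; open points belong to probes that were above background on no array. The FAM30A points of the shGATA3 arrays lie far to the left of the others, and FLT3, PROM1 and BAALC lie at intensities of 5.2 or less.

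FAM30A is a long noncoding RNA, also known as KIAA0125, which is abundant in blood stem cells and belongs to LSC17, an expression score of leukaemia stem cells. On its probe A_23_P140190 the intensity, before arrays were scaled to each other, was 1203 and 1327 in control, 96.6 and 95.7 with shGATA3 and 1377 and 1390.0 with shTCF1. After variance stabilizing normalization (VSN), whose values equal a log2 at high signal and shrink differences at low signal, the log2 intensities were 9.88 and 9.89 in control, 6.87 and 6.81 with shGATA3 and 10.60 and 10.73 with shTCF1. Each pair lay close together, and the 3 groups did not overlap. The mean was 3.05 log2 units lower with shGATA3 than in control, an 8.30-fold difference, and 3.83 log2 units lower than with shTCF1, a 14.2-fold difference. These are the values that chose the gene.

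A second FAM30A probe, A_24_P95723, gave 9.37 and 9.29 in control, 6.32 and 5.56 with shGATA3 and 10.00 and 10.01 with shTCF1. It showed the same order of groups, with the wider spread on the arrays labelled shGATA3. The mean was 3.39 log2 units lower with shGATA3 than in control, and 4.07 lower than with shTCF1. With the deposited matrix the log2 change of the first probe was -1.60 instead of -3.05, where the column of control replicate 2 held 7.10 and that of control replicate 1 held 9.88.

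On the arrays labelled shTCF1 FAM30A was higher than in control, a comparison that shares its control arrays with the one used to choose the gene. The log2 change of A_23_P140190 was 0.77 (SE 0.10, 95% confidence interval 0.52 to 1.02, adjusted p 0.0101 in limma), a 1.71-fold rise. The second probe gave 0.68 (SE 0.24, 95% confidence interval 0.085 to 1.27) and was not called (adjusted p 0.107 in limma), although both of its shTCF1 arrays lay above both control arrays. The call of the first probe was lost without control replicate 1 (adjusted p 0.0638 in limma) and without control replicate 2 (0.0531), and over all alternatives its adjusted p ranged from 0.000782 to 0.541.

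**Figure D2:**
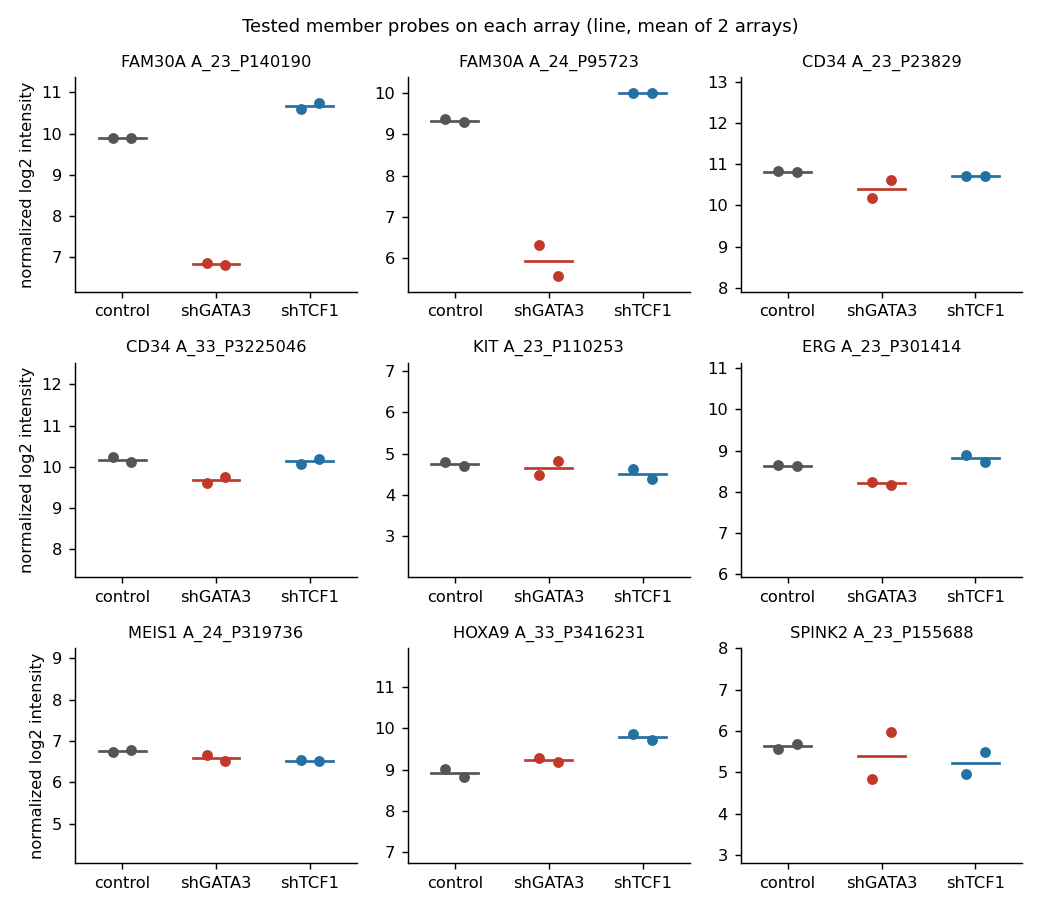
Normalized log2 intensity of the 9 tested member probes, 1 panel per probe, with a point per array, a line at the mean of 2 arrays and the same span of 5.2 log2 units on each vertical axis. FAM30A drops on both of its probes on the arrays labelled shGATA3, while the other genes stay within about a log2 unit of control on every array.

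CD34 is the surface sialomucin by which blood progenitors are isolated. Its probe A_23_P23829 gave 10.83 and 10.80 in control, 10.19 and 10.61 with shGATA3 and 10.71 and 10.70 with shTCF1. Its probe A_33_P3225046 gave 10.23 and 10.12 in control, 9.61 and 9.75 with shGATA3 and 10.06 and 10.20 with shTCF1. On both probes the arrays labelled shGATA3 were lowest and did not overlap with control. The log2 changes against control were -0.42 (SE 0.15, 95% confidence interval -0.79 to -0.041, adjusted p 0.157 in limma) and -0.50 (SE 0.11, 95% confidence interval -0.77 to -0.22, adjusted p 0.0573), and neither was called. The second probe was called under 4 of 17 alternatives, with adjusted p from 0.0116 to 0.568, and the first under 0. Against shTCF1 the log2 changes were -0.31 (adjusted p 0.293 in limma) and -0.45 (adjusted p 0.0784). Between shTCF1 and control the log2 changes of CD34 were -0.11 and -0.047, with 95% confidence intervals of -0.48 to 0.27 and -0.32 to 0.23.

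KIT is the receptor of stem cell factor. Its probe A_23_P110253 was dim, above background on 5 of 6 arrays, with log2 intensities of 4.80 and 4.70 in control, 4.49 and 4.81 with shGATA3 and 4.63 and 4.40 with shTCF1. The group means lay within 0.24 log2 units of each other. The changes against control were -0.099 (95% confidence interval -0.47 to 0.27, adjusted p 0.710 in limma) with shGATA3 and -0.24 (95% confidence interval -0.61 to 0.13, adjusted p 0.311) with shTCF1.

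ERG is an ETS transcription factor needed to maintain blood stem cells. Its log2 intensity was 8.64 and 8.62 in control, 8.24 and 8.17 with shGATA3 and 8.89 and 8.73 with shTCF1. The arrays labelled shGATA3 were lowest and those labelled shTCF1 highest, with no overlap. The direct difference of shGATA3 from shTCF1 was called, with a log2 change of -0.60 (SE 0.11, 95% confidence interval -0.86 to -0.34, adjusted p 0.0314 in limma), a 1.52-fold difference. Neither difference from control was called, at -0.43 (adjusted p 0.0696 in limma) with shGATA3 and 0.18 (adjusted p 0.288) with shTCF1. The direct call did not hold without any 1 of the 6 arrays, with adjusted p from 0.0698 to 0.115, and over all alternatives its adjusted p ranged from 0.00582 to 1.00.

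HOXA9, a homeodomain factor of stem and progenitor cells, rose on the arrays labelled shTCF1. Its probe A_33_P3416231 gave 9.01 and 8.82 in control, 9.27 and 9.18 with shGATA3 and 9.85 and 9.72 with shTCF1. The groups followed each other without overlap, from control over shGATA3 to shTCF1. The rise with shTCF1 was 0.87 on the log2 scale (SE 0.12, 95% confidence interval 0.58 to 1.16, adjusted p 0.0107 in limma), or 1.83-fold. It lost its call without control replicate 2 (adjusted p 0.0555 in limma), and its adjusted p ranged from 0.000843 to 0.541 over all alternatives. The difference of shGATA3 from control was 0.31 (adjusted p 0.165 in limma) and that of shGATA3 from shTCF1 was -0.56 (SE 0.12, adjusted p 0.0503), and neither was called. The second of these was called under 4 of 17 alternatives, with adjusted p from 0.00978 to 0.940.

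MEIS1, a homeodomain partner of HOXA9, gave 6.73 and 6.79 in control, 6.65 and 6.52 with shGATA3 and 6.53 and 6.51 with shTCF1. Both shRNA groups lay slightly below control, and no difference was called. The log2 changes were -0.17 (95% confidence interval -0.42 to 0.077, adjusted p 0.332 in limma) with shGATA3 and -0.24 (95% confidence interval -0.49 to 0.0087, adjusted p 0.154) with shTCF1. HOXA9 and MEIS1 thus had changes of opposite sign with shTCF1, and for MEIS1 the interval includes 0.

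SPINK2, a serine protease inhibitor known as a marker of primitive blood progenitors, gave 5.57 and 5.69 in control, 4.83 and 5.97 with shGATA3 and 4.95 and 5.48 with shTCF1. Its arrays labelled shGATA3 lay on both sides of control, and its spread was the widest among the tested member probes. The 95% confidence intervals of its log2 changes were -1.15 to 0.70 with shGATA3 and -1.34 to 0.52 with shTCF1, so these arrays could not have shown a change of moderate size.

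**Figure D3:**
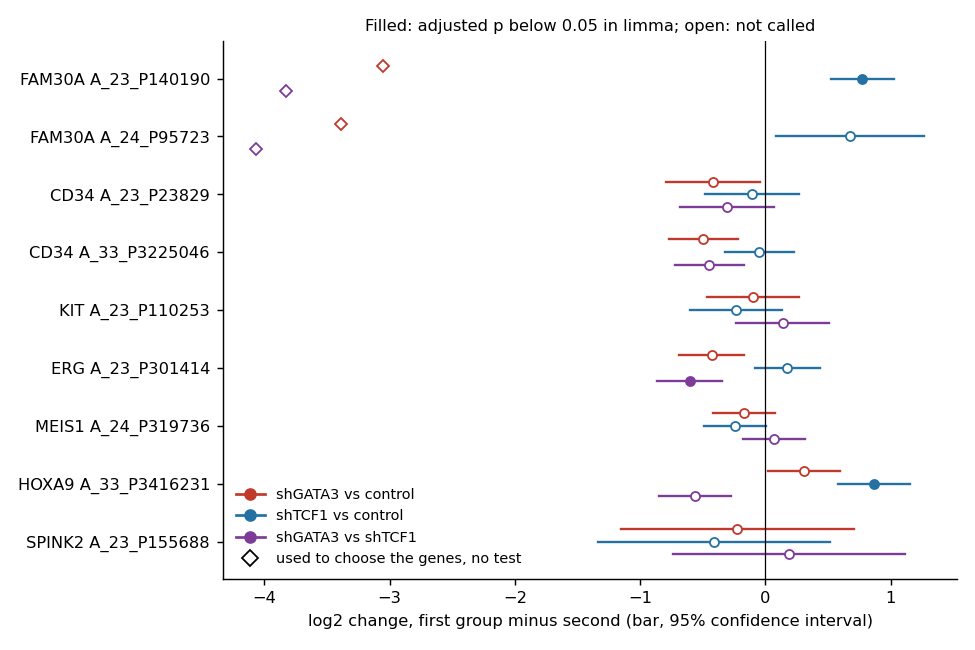
Log2 change of each tested member probe in the 3 comparisons, with bars for the 95% confidence interval, filled points for an adjusted p below 0.05 and open points for differences not called; diamonds without a bar are the FAM30A values that chose the genes. The called points are FAM30A and HOXA9 with shTCF1 at 0.77 and 0.87 and ERG in the direct comparison at -0.60. The FAM30A diamonds, at -3.05 to -4.07, carry no test.

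Counted by gene, 0 of the 6 tested members other than FAM30A were called by limma between shGATA3 and control, where 6.84% of all 31134 tested probes were called, and FAM30A itself is not counted because it was chosen on this difference. Of the 6, 3 had an unadjusted p under 0.05 (CD34, ERG and HOXA9), as had 26.5% of all probes, and limma with an intensity trend called ERG. Between shTCF1 and control 2 of 7 were called, FAM30A and HOXA9, both higher, against 16.9% of all probes called and 7.21% called higher. This comparison shares its control arrays with the one that chose FAM30A. Without FAM30A 1 of 6 was called there, HOXA9. Between shGATA3 and shTCF1 1 of the 6 other than FAM30A was called, ERG, which was lower with shGATA3, against 6.18% of all probes called and 2.6% called lower. The median log2 change of the 6 members other than FAM30A was -0.20, -0.17 and -0.12 in these 3 comparisons, against -0.011, -0.019 and -0.0041 over all tested probes. In bulk samples, fewer cells of a kind and less RNA per cell cannot be told apart.

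The profile of FAM30A over the 6 arrays was compared with 13486 other named genes above background on all arrays, by the distance between their log2 intensities after each gene's mean was taken off. The closest was CD44, an adhesion receptor, at a distance of 0.28, where the median gene lay at 4.06 and the second FAM30A probe at 0.62. CD44 gave 11.09 and 10.87 in control, 7.97 and 7.88 with shGATA3 and 11.62 and 11.57 with shTCF1. The next were RAB7B, a small GTPase of late endosomes, at 0.92, CXXC5, a zinc finger protein, at 1.23, HOXB5, a homeodomain factor, at 1.39, and LYL1, a basic helix-loop-helix factor of stem cells and T-cell leukaemia, at 1.51. All 5 were lowest on the arrays labelled shGATA3 and highest on those labelled shTCF1, which follows from the way they were picked. Their log2 changes with shGATA3 against control were -3.05 for CD44, -2.25 for RAB7B, -1.84 for CXXC5, -2.0 for HOXB5 and -1.77 for LYL1.

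**Figure D4:**
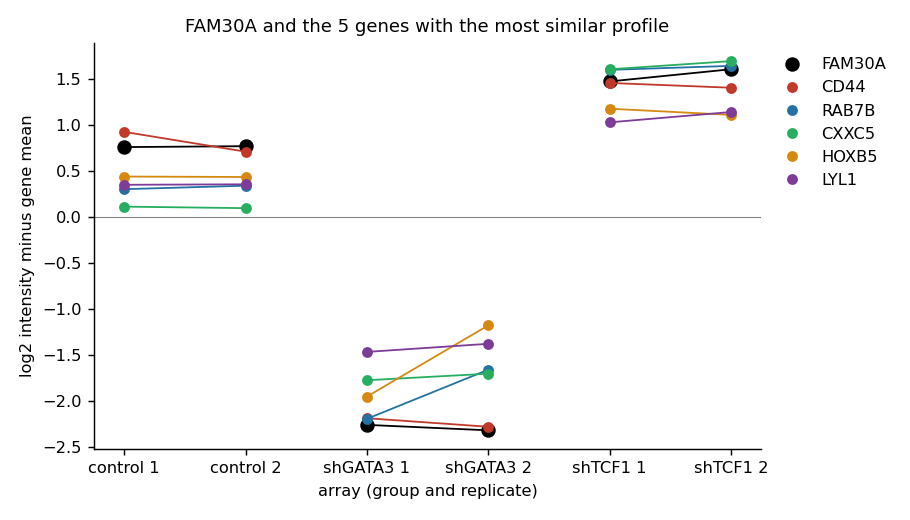
Log2 intensity minus the gene's own mean on each of the 6 arrays for FAM30A and the 5 genes with the smallest distance to it; lines join the 2 arrays of a group. CD44 lies almost on FAM30A, while RAB7B, CXXC5, HOXB5 and LYL1 fall less with shGATA3.

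Other genes of the stem and progenitor programme were taken from 5 lists with 71 genes, of which 55 were tested. The lists were chosen with earlier results of these data known. Each gene is counted by its brightest tested probe, and 50 had a probe above background on all arrays, whereas the shares of all probes include dim ones. With only probes above background on all arrays, 12 context genes and 2677 of 27332 probes were called between shGATA3 and control. The shares are therefore not of like sets, and their difference was not tested. Between shGATA3 and control 9 of 55 were called, 1 higher and 8 lower, a share of 16.4% against 6.84% of all probes called and 3.96% called lower. With shTCF1 against control 11 were called, 6 higher and 5 lower, a share of 20% against 16.9% of all probes. Between both shRNA groups 13 were called, 2 higher and 11 lower with shGATA3, a share of 23.6% against 6.18%. Their median log2 changes were -0.12, 0.044 and -0.24 in these 3 comparisons. These counts depended on single arrays. With shTCF1 the 11 fell to 1 when control replicate 1 was left out, to 2 when control replicate 2 was left out and to 6 when either array labelled shTCF1 was. With shGATA3 the 9 fell to 4 when either control array, or the second array labelled shGATA3, was left out, and to 6 when its first array was. Between both shRNA groups the 13 fell to 7 or 8 when any of the 4 shRNA arrays was left out. With shGATA3 against control, the calls of LYL1, HHEX, PROCR and ITGA6 held whichever array was left out and those of PIK3CD, AVP and NRIP1 held in 0 of the 6 fits, while 0 of the 11 calls with shTCF1 held in all 6.

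Among 13 tested stem cell transcription factors 3 were called lower with shGATA3, LYL1, HHEX and MECOM, and 0 higher, against 3.96% of all probes called lower. LYL1 gave 9.86 ± 0.0036 (SD, n = 2) in control, 8.09 ± 0.062 (SD, n = 2) with shGATA3 and 10.59 ± 0.079 (SD, n = 2) with shTCF1. It fell 3.42-fold with shGATA3 (adjusted p 0.00194 in limma) and rose 1.66-fold with shTCF1 (adjusted p 0.0114), as FAM30A did in direction. HHEX, a homeodomain factor of early blood cells, was lower in both groups, by log2 changes of -1.80 with shGATA3 (SE 0.095, adjusted p 0.00169 in limma) and -0.50 with shTCF1 (adjusted p 0.0231). MECOM, which encodes the stem cell factor EVI1, fell with shGATA3 with a log2 change of -0.76 on its brightest probe (adjusted p 0.0145 in limma), and its other probes gave -0.54 and -0.62, the first of which was not called. With shTCF1 against control these other probes differed from each other. The first gave 0.096 and was not called, and the second gave -0.58 and was called (adjusted p 0.0180 in limma). The fall of that second probe was thus not particular to shGATA3. MEF2C, a factor of immature T-cell leukaemia, was not well above background in control. At its measured values it was 2.11-fold higher with shTCF1 (adjusted p 0.0342 in limma), an estimate and no lower bound.

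Of 9 tested HOXA, MEIS and PBX partners of HOXA9, 0 were called with shGATA3 by limma, against 6.84% of all probes. At an unadjusted p under 0.05 were 3 of them (26.5% of all probes). With shTCF1 1 of the 9 was called, against 16.9% of all probes. This was HOXA10, the neighbour of HOXA9, with 11.33 and 11.10 in control, 11.56 and 11.70 with shGATA3 and 12.08 and 12.05 with shTCF1. Its log2 change with shTCF1 was 0.85 (SE 0.12, adjusted p 0.0118 in limma). A dimmer HOXA10 probe, A_24_P77904, did not repeat this rise. With shTCF1 it was not well above background, overlapped with control and was not called (adjusted p 0.906 in limma), so no fold is given. With shGATA3 against control it gave 0.54 and was not called (adjusted p 0.284 in limma). The called rise of HOXA10 thus rests on 1 probe.

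Of the KIT and FLT3 ligands, receptors of their family and signalling genes, 8 of 12 were tested. STAT5A, a transcription factor downstream of both receptors, was higher with shTCF1 than in control by 0.86 (SE 0.14, adjusted p 0.0149 in limma) while its shGATA3 and control means were 0.011 apart. PIK3CD, a catalytic subunit of PI3 kinase, was lower in both groups, with a log2 change of -0.69 with shGATA3 (adjusted p 0.0336 in limma) and -0.85 with shTCF1 (adjusted p 0.0126), while its second probe, A_33_P3353941, gave -0.41 (adjusted p 0.290) and -0.68 (adjusted p 0.0847) and was called in neither. CBL, the ubiquitin ligase that removes active receptors, was lower with shTCF1 with a log2 change of -0.66 (adjusted p 0.0191 in limma).

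LSC17 also holds FAM30A and CD34. Of its other 15 genes 11 were tested, and of these 1 was called with shGATA3 against control, 2 with shTCF1 against control and 5 between both shRNA groups, against 6.84%, 16.9% and 6.18% of all probes. The 5 were 1 higher and 4 lower with shGATA3. SMIM24, a small membrane protein, gave 9.74 and 9.99 in control, 9.59 and 9.77 with shGATA3 and 10.81 and 10.96 with shTCF1. It was higher with shTCF1 than in control by 1.01 (SE 0.14, adjusted p 0.0105 in limma) and lower with shGATA3 than with shTCF1 by a log2 change of -1.20 (adjusted p 0.00792). LAPTM4B, a lysosomal membrane protein, was lower with shGATA3 than in control with a log2 change of -0.74 (SE 0.11, adjusted p 0.0194 in limma). Its second probe, A_24_P414999, gave -1.09 against control (adjusted p 0.0136 in limma) and -1.01 against shTCF1 (adjusted p 0.0146). ADGRG1, the adhesion receptor GPR56, differed between both shRNA groups with a log2 change of -0.67 (adjusted p 0.0424 in limma). This call was lost whichever array was left out. The probes of NYNRIN did not give the same picture. Its brightest probe gave 0.75 in the direct comparison (adjusted p 0.0288 in limma) and -0.73 with shTCF1 against control (adjusted p 0.0193), while A_33_P3258600 gave -0.34 and 0.23 and A_33_P3382835 gave 0.020 and 0.089, none of them called.

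Of 14 tested genes associated with stem cells 4 were called with shGATA3, 3 lower and 1 higher, against 6.84% of all probes called and 3.96% called lower. PROCR, the endothelial protein C receptor used to sort blood stem cells, gave 7.03 and 7.16 in control, 6.32 and 5.95 with shTCF1 and was not well above background with shGATA3. At its measured values it was 6.02-fold lower with shGATA3 than in control (adjusted p 0.00194 in limma), an estimate and no lower bound. With shTCF1 it was 1.95-fold lower (adjusted p 0.0142 in limma). ITGA6, the integrin chain CD49f, fell with shGATA3 with a log2 change of -1.34 (SE 0.11, adjusted p 0.00439 in limma) and its second probe with a log2 change of -1.18, while with shTCF1 the first gave -0.14 and was not called. AVP, known as a marker of blood stem cells in single-cell data, was lower with shGATA3 with a log2 change of -0.87 (SE 0.17, adjusted p 0.0393 in limma). NRIP1, a nuclear receptor corepressor, rose with shGATA3 by 0.84 (SE 0.14, adjusted p 0.0263 in limma).

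**Figure D5:**
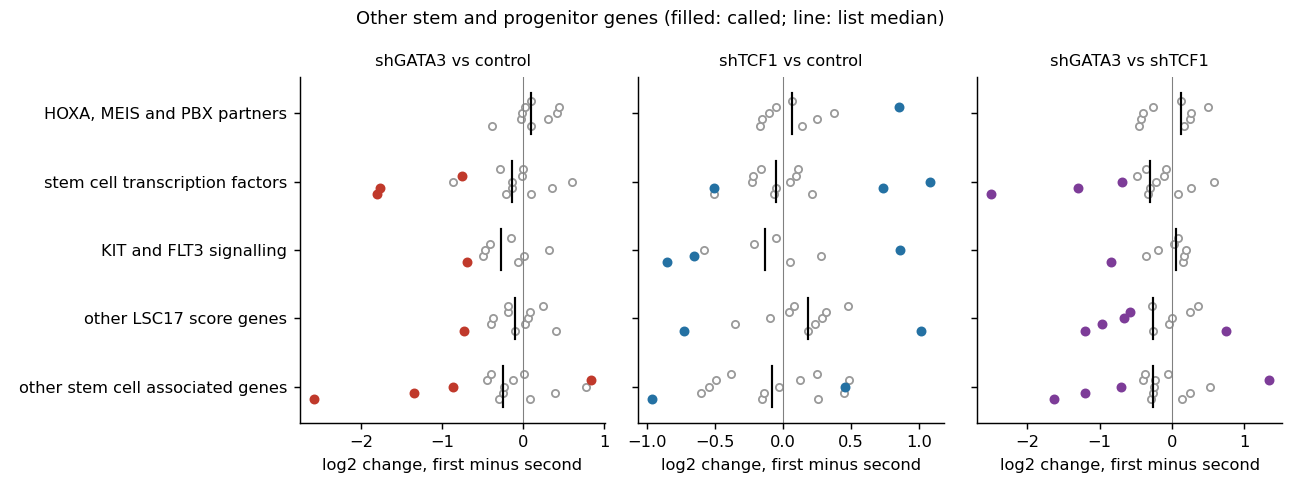
Log2 change of the 55 tested genes of 5 stem and progenitor lists in the 3 comparisons, with 1 point per gene, filled where called in limma, and a line at each list's median. The horizontal axes differ between panels. With shGATA3 against control 8 of the 9 filled points lie below 0, and with shTCF1 against control 6 of 11 lie above 0.

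Markers of other blood lineages moved along with FAM30A in part. Of 7 B-lineage markers 5 were tested, and VPREB1, a chain of the pre-B-cell receptor, gave a log2 change of -1.0 with shGATA3 (adjusted p 0.0124 in limma) and 1.63 with shTCF1 (adjusted p 0.00385). The summed level of the B-lineage markers, as 2 to the power of the normalized values, was 4369 to 7849 in control, 3318 to 5167 with shGATA3 and 10806 to 11884 with shTCF1, and the defining factor PAX5 was not well above background on both arrays of any group. Of 7 myeloid markers 3 were tested, with summed levels of 306 to 344 in control, 351 to 357 with shGATA3 and 383 to 405 with shTCF1, and CD33, CEBPA, LYZ and ELANE were not well above background on both arrays of any group. CSF3R, the receptor of granulocyte colony-stimulating factor, was higher with shTCF1 by 0.67 (adjusted p 0.0152 in limma). All 6 erythroid and megakaryocyte markers were tested and 0 were called by limma with shGATA3, with shTCF1 or between both. Of all probes 6.84%, 16.9% and 6.18% were called, so few calls could be looked for among 6 genes. At an unadjusted p under 0.05 were 0, 3 and 2 of them, against 26.5%, 35.0% and 23.4% of all probes. Their summed levels ran from 897 to 936 in control, 933 to 1101 with shGATA3 and 1161 to 1194 with shTCF1. The part of these markers in the results was not tested.

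The T-lineage markers themselves had a median log2 change of 0.079 with shGATA3 and -0.040 with shTCF1. Against control, 2 of 16 tested were called with shGATA3, 1 higher and 1 lower, and 5 with shTCF1, 2 higher and 3 lower. Between both shRNA groups 3 were called, all higher with shGATA3. Over all probes the shares called were 6.84%, 16.9% and 6.18% in these 3 comparisons. The summed level of the 16 tested ones was 87546 to 89936 in control, 116812 to 134230 with shGATA3 and 85992 to 102793 with shTCF1, so that the arrays labelled shGATA3 lay above the others; the part of this in the results was not tested. CD2, an adhesion receptor of T cells, was lower with a log2 change of -0.47 with shGATA3 (adjusted p 0.0439 in limma) and with a log2 change of -2.19 with shTCF1 (adjusted p 0.00199). CD1B, a marker of cortical thymocytes, was not well above background in control and at least 2.80-fold higher with shGATA3 (adjusted p 0.00169 in limma). RAG1, a recombinase subunit, was at least 1.87-fold lower with shTCF1, where it was not well above background (adjusted p 0.0320 in limma), and CD1A at least 1.47-fold higher with shGATA3 than with shTCF1 (adjusted p 0.0388).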

How the data were processed

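RNA of 6 samples was hybridised to 1-colour Agilent arrays, 2 per group, with groups as in the sample titles. The intensity values had, per the file headers, been background-subtracted by Agilent Feature Extraction 10.7.1.1 (the submitters' processing notes name 9.1) and not scaled between arrays. A matrix of log2 values that the authors deposited, named VSN-normalized in their methods, served only as an alternative, since 2 of its 6 columns correlated best with their own array. Value columns assigned to no sample numbered 0.

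Control and outlier spots were left out, which removed 71 probes, and spots of a probe were averaged. Intensities were normalized with an own implementation of the VSN model (trimming quantile 0.9, 7 iterations, 5 strata) in Python 3.11.15. A probe was tested if marked well above background on each array of 1 or more groups. This left 31134 of 57176 probes. Accessions were matched to RefSeq symbols (GRCh38.p14), which named 25725 probes, and the headers name hg19, so no gene coordinates were taken over. The tested probe with the highest mean stood for its gene.

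All contrasts came from 1 fit in limma 3.58.1 (R 4.3.3, two-sided, group as the only term, 3 residual degrees of freedom), adjusted by Benjamini-Hochberg over all tested probes, with calls at an adjusted p below 0.05. With 2 arrays per group the smallest p of an exact permutation test for a single probe is 0.333. The procedure was tested on simulated data. Where neither array of a group was well above background, a bound replaces the fold: the bright group's mean against the mean, per array, of the higher of the lowest signal well above background and the probe's own value. For PROCR and MEF2C the probe's own values were the higher, so their folds are estimates. Named were all members, per other list up to 4 called genes with the largest change, and the 5 genes most like FAM30A. Of these, 1 gene is left out of the text. The members and lists were chosen with earlier results of these data known. Alternatives changed the scaling, background correction, dim-probe filter, variance model, arrays fitted and replicate block. Precision is limited by the number of arrays.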

Additional observations from a re-analysis of the deposited data

How the results depend on the processing

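For the 27 log2 changes of member probes, 456 values were computed under alternatives, of which 412 kept their direction and, where tested, their call, 15 lost and 17 gained a call, and 12 changed sign. The 12 were called neither before nor after. CD34 (A_33_P3225046) with shTCF1 went from -0.047 to 0.0010 with 75th percentile scaling, 2.53 with the deposited matrix, and between -0.11 and 0.020 when 1 array was left out (0.0065 without control replicate 1, 0.020 without shTCF1 replicate 1), and with shGATA3 to 2.25 with the deposited matrix, where control replicate 2 held 4.92 against 10.27 in control replicate 1. KIT lay between -0.26 and 0.061 with shGATA3 and between -0.023 and 0.30 in the direct comparison when 1 array was left out, crossing 0 without shGATA3 replicate 1 and replicate 2, respectively. SPINK2 lay between -0.79 and 0.35 with shGATA3 when 1 array was left out (0.35 without shGATA3 replicate 1), and in the direct comparison it was -0.0083 with VSN on the raw median signal, -0.0039 with normexp and between -0.39 and 0.76 when 1 array was left out (-0.39 without shGATA3 replicate 2, -0.080 without shTCF1 replicate 1).

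Calls are given in the order shGATA3 against control, shTCF1 against control and the direct comparison. With FAM30A left out of the first and the last, which chose it, members called numbered 0, 2 and 1. With the deposited matrix, whose columns follow their arrays poorly, 0 were called in each (0, 1 and 2 at an unadjusted p under 0.05). ERG was added to the first with an intensity trend or only probes above background on all arrays. In the direct comparison ERG was lost with no filter, with only the arrays compared and with the replicate block. There HOXA9 was added with VSN on the raw median signal, an intensity trend, normexp or only probes above background on all arrays. When 1 array was left out, the log2 change of ERG in the direct comparison lay between -0.68 and -0.52. With shTCF1 that of FAM30A (A_23_P140190) lay between 0.71 and 0.84 and that of HOXA9 between 0.78 and 0.96. Context genes called numbered 9, 11 and 13, and 0 in each with the deposited matrix (10, 7 and 11 at an unadjusted p under 0.05). The first rose to 14 with VSN on the raw median signal, 17 with an intensity trend and 16 with normexp, and the direct comparison fell to 8 with no filter. Leaving out 1 array gave 4 to 7, 1 to 9 and 7 to 10, with 1 without control replicate 1 and 2 without control replicate 2 for the second. All probes called numbered 2130, 5274 and 1925, and 0 with the deposited matrix (1814, 2652 and 1642 at an unadjusted p under 0.05), 560, 2272 and 901 with no filter, and for shGATA3 against control and the direct comparison 3912 and 3273 with an intensity trend and 4280 and 3281 with normexp, with 3290 for the first with VSN on the raw median signal and 1214 for the direct comparison with only the arrays compared. Leaving out 1 array gave 437 to 1454, 865 to 4930 and 701 to 1214.

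Replicate numbers did not pair the samples (pair correlations -0.040, -0.0098 and 0.049); with the replicate block 1328, 3853 and 1285 probes were called. All arrays shared 1 slide and 1 scan, so a slide or scan block could not be run. Signal over background limits KIT and SPINK2 and leaves FLT3, PROM1 and BAALC unmeasured. The cause of the changes between alternatives was not tested.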
